A study of Drosophila melanogaster with 3 samples.

Results

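The 8 Hox genes of Drosophila melanogaster and the genes of their DNA-binding partners, extradenticle (exd) and homothorax (hth), were examined for chromatin immunoprecipitation peaks of the protein CG18262. These 10 of 13945 protein-coding genes of the annotation were taken by name, not by their peaks, though earlier results of these data were known. They are lab, pb, Dfd, Scr and Antp of the Antennapedia complex (ANT-C), Ubx, abd-A and Abd-B of the bithorax complex (BX-C), and exd and hth, which lie outside both. The study sequenced DNA pulled down with an antibody against GFP from whole embryos of 0 to 16 hours, males and females pooled. The flies were a transgenic line that stably makes CG18262 with GFP (eGFP) at its C-terminus. The sources used here give neither the promoter that drives the transgene nor the number of embryos. All 3 biological replicates formed 1 group, so no treatment or genotype was compared, and no label says that they came from separate crosses. Whole embryos hold cells of every segment, so a peak at a Hox gene cannot be assigned to cells in which that gene is on or off.

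Hox genes encode homeodomain transcription factors that give the segments their identities along the head-to-tail axis, and they lie along the chromosome in the order of the body regions they specify. The ANT-C genes act in the head and the anterior thorax, and the BX-C genes in the posterior thorax and the abdomen. Exd and Hth are homeodomain proteins of the TALE class. They bind DNA beside Hox proteins and sharpen their choice of targets, and Hth carries Exd into the nucleus. Large non-coding regions hold the enhancers of these genes. Those of the BX-C, though not only those, also hold boundary elements and the DNA elements through which Polycomb and Trithorax proteins keep expression states.

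The peaks came as lists. Each replicate and the pooled reads had a list of 30000 peaks, and 8529 peaks passed the authors' threshold on irreproducible discovery rate (IDR), a measure of how alike peaks rank between replicates. The thresholded peaks were the 8529 strongest of the pooled list, so they are not an independent check of the replicates. A peak's rank, 1 being the strongest, follows the authors' signal value, whose scale was not stated. Some peak regions are listed more than once with different summits, and each such summit was counted and ranked. The strongest 8529 peaks of each replicate list were used beside the thresholded list. No read counts were examined, so read depth is unknown. Neither flies without the tag nor the control reads were analysed here, and binding of CG18262 cannot be told apart from a general antibody signal at open chromatin. Coordinates are on dm6, and all intervals are exact 95% intervals that cover counting error only.

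The sequences around the peak summits that the results turn on are printed on the plus strand of the RefSeq genome of the same assembly, 101 bases each, 50 on each side of the summit. Capitals mark matches to the motifs named further on, and a sequence without capitals had none. The first pair are the strongest summits of each complex, at Amalgam (Ama, an immunoglobulin-family gene between bcd and Dfd) and inside Abd-B.
Ama, chr3R:6763040-6763140: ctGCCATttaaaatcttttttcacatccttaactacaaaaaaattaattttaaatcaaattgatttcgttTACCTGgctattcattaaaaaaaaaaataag
Abd-B, chr3R:16958237-16958337: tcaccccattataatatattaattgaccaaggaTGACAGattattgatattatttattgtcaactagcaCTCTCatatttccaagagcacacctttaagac
The next 4 are the summits nearest to start sites of lab, Dfd, Antp and exd, all less than 500 bp away.
lab, chr3R:6663125-6663225: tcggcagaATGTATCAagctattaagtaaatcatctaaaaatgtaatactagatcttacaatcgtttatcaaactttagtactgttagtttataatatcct
Dfd, chr3R:6791343-6791443: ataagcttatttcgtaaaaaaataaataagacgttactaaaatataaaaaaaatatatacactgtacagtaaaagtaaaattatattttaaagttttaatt
Antp, chr3R:6933206-6933306: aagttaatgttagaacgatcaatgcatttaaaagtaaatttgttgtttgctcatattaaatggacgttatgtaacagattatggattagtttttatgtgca
exd, chrX:15992109-15992209: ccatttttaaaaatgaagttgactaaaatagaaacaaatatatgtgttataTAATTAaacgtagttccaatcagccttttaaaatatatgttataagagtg
The last pair, chosen after their ranks were seen, are the strongest summits inside hth and inside Antp.
hth, chr3R:10537268-10537368: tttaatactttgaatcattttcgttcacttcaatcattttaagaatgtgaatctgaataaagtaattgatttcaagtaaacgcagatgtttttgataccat
Antp, chr3R:6912589-6912689: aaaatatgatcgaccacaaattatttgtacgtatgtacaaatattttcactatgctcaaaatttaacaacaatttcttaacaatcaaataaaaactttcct
All 8 are rich in A and T, with A+T shares of 68.3% at Abd-B and 85.1% at Dfd as the lowest and the highest. The median over the summits at the 10 genes was 71.3%, against 70.3% over all thresholded summits.

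Thresholded CG18262 summits lay in or within 10 kb of all 10 genes, more often in introns than at start sites. No thresholded summit lay inside Dfd, Scr, abd-A or exd. Within the genes and 10 kb on either side there were 70 thresholded summits. All 10 genes had at least 1, as did 70.4% of all protein-coding genes and 80.4% of those between exd (4.04 kb) and hth (132 kb) in length, the shortest and the longest of the 10. Of the 10, lab, Dfd, Antp and exd (4 genes) had a summit at a start site (no more than 500 bp away), against 26.7% of all protein-coding genes and 37.6% of those in the same range of length. A start site with a summit that near in the strongest part of all 3 replicate lists was found for 2 of the 10, lab and Antp, against 20% of all genes. None of the 10 had a summit within 200 bp of a start site, against 18.3% of all genes. The median distance from a gene's start sites to the nearest summit was 976.5 bp for the 10 genes, 1868 bp for genes in their range of length and 4483 bp for all genes.

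The median number of summits within 10 kb was 5 for the 10 genes, against 2 for all protein-coding genes and 2 for those in the same range of length. The 10 genes are long, with a median of 30563 bp against 2166 bp for all genes. Each was therefore also set beside genes of 0.5 to 2 times its own length, itself included. The share of those genes with as many summits or more was 54.9% for pb, 42.7% for Scr, 49.1% for Abd-B and 56.9% for exd. It was 30.7% for Ubx and 21.8% for abd-A, and for the other genes it is given below. Ranks of the 70 summits were close to those of all thresholded summits. The median stood at 47.7% of the list, counted from the strongest, against 50% by construction, and at 52.5%, 54.9% and 45.6% in the strongest parts of the lists of replicates 1, 2 and 3. The strongest 10% of the list held 6 of the 70 (8.57%), the strongest 500 held 2, and the strongest 100 held none.

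The positions held across replicates. Of the 70 summits, 64 (91.4%, 82.3 to 96.8) had a summit within 100 bp in all 3 full replicate lists, against 88.8% of all thresholded summits. The median distance to the matching summit was 20, 16.5 and 13 bp in replicates 1, 2 and 3, against 19, 17 and 10 bp for all thresholded summits. Below the threshold, the pooled list held a further 219 summits at the 10 genes, of which 53 (24.2%, 18.7 to 30.4) were matched in all 3 replicate lists, against 25.2% of all such summits. The thresholded share of the pooled summits was 24.2% (19.4 to 29.6) at the 10 genes and 28.4% over the genome.

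**Figure D1:**
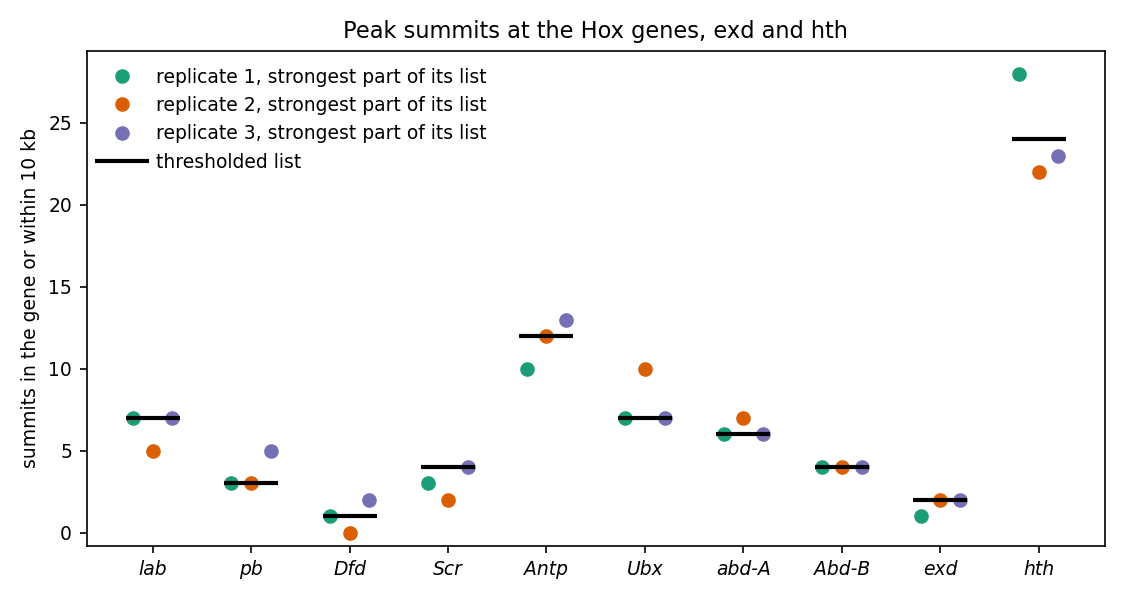
Number of summits in each of the 10 genes and within 10 kb, in the thresholded list (black bars) and in the strongest part of each replicate list (points). hth stands highest at 24 thresholded summits and 28, 22 and 23 in the replicates, followed by Antp at 12 thresholded summits.

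The ANT-C genes differed widely among themselves. labial (lab, FBgn0002522, chr3R:6661427-6678590, minus strand), which acts in the head and the midgut, is 17.2 kb long and held 7 summits, all inside the gene. The strongest parts of the replicate lists gave 7, 5 and 7 (6.33 ± 1.15, SD, n = 3), against a median of 2 thresholded summits for genes of like length. Of those genes, 12.2% had as many as lab or more. The summit printed above lies 279 bp from the inner of 2 start sites and ranked 6727, with ranks of 7714, 6650 and 8176 in replicates 1 to 3. The outer start site was 3833 bp from the nearest thresholded summit. The strongest lab summit was in an intron at 6674757 and ranked 2947, with 3067, 3581 and 2953 in the replicates.

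proboscipedia (pb, FBgn0051481, chr3R:6707800-6742063), the mouthpart gene, had 1 summit inside its 34.3 kb and 3 within 10 kb. The replicates gave 3, 3 and 5. Its intronic summit at 6723984 ranked 2226, with 1919, 2752 and 2261 in replicates 1 to 3. The pb start site was 4274 bp from the nearest thresholded summit. Deformed (Dfd, FBgn0000439, chr3R:6791836-6802428, plus strand), which specifies the jaw-bearing head segments, had a single summit, 443 bp upstream of its start, at rank 3406. Its match ranked 5324 in replicate 1 and 2892 in replicate 3, and replicate 2 had none within 100 bp. Of genes of like length, 80.8% had as many summits as Dfd or more.

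No summit lay inside Sex combs reduced (Scr, FBgn0003339, chr3R:6823120-6849981, 26.9 kb), the gene of the labial and first thoracic segments. This held in the pooled list, in the thresholded list and in each of the 3 full replicate lists. It was noticed after the values were seen, and 27.9% of genes of 0.5 to 2 times its length also had no pooled summit inside. The 4 summits within 10 kb of Scr all lay beyond its 3′ end, the nearest 29735 bp from an Scr start site. The strongest of them ranked 2659, with 3140, 2414 and 2981 in the replicates. Scr sits in the widest stretch of the ANT-C without a thresholded summit, 63.0 kb from 6818770 to 6881792, which also covers the pair-rule gene ftz. That stretch held 0 pooled summits and 4, 1 and 3 summits of the full lists of replicates 1, 2 and 3. Of these, 0, 0 and 2 were in the strongest part of their list.

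Antennapedia (Antp, FBgn0260642, chr3R:6896253-6999228, minus strand, 103 kb), the gene of the thoracic segments, held 12 thresholded summits, and 10, 12 and 13 in the replicates (11.7 ± 1.53, SD, n = 3). Genes of like length had a median of 4, and 16.6% of them had 12 or more. All 12 lay between 6899116 and 6950295, in the downstream part of the gene. That part is also covered by CG46458 (6896253 to 6958370), an annotated gene on the same strand, and a peak there cannot be assigned to either gene. Antp held 4 of the 5 ANT-C summits in the strongest 1000. The strongest, at 6912639, ranked 515, with 588, 562 and 471 in replicates 1 to 3. The summit at 6903422 ranked 535, with 555, 503 and 587. The summits at 6936355 and 6914534 ranked 716 and 761, and none of the 4 ranked below 840 in any replicate. Of the 3 Antp start sites the innermost, at 6932840, had a summit 416 bp away at rank 3792. Its ranks in the replicates were more scattered, 6910, 4761 and 2901. The other start sites, at 6958370 and 6999228, were 8075 and 12437 bp from a thresholded summit.

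**Figure D2:**
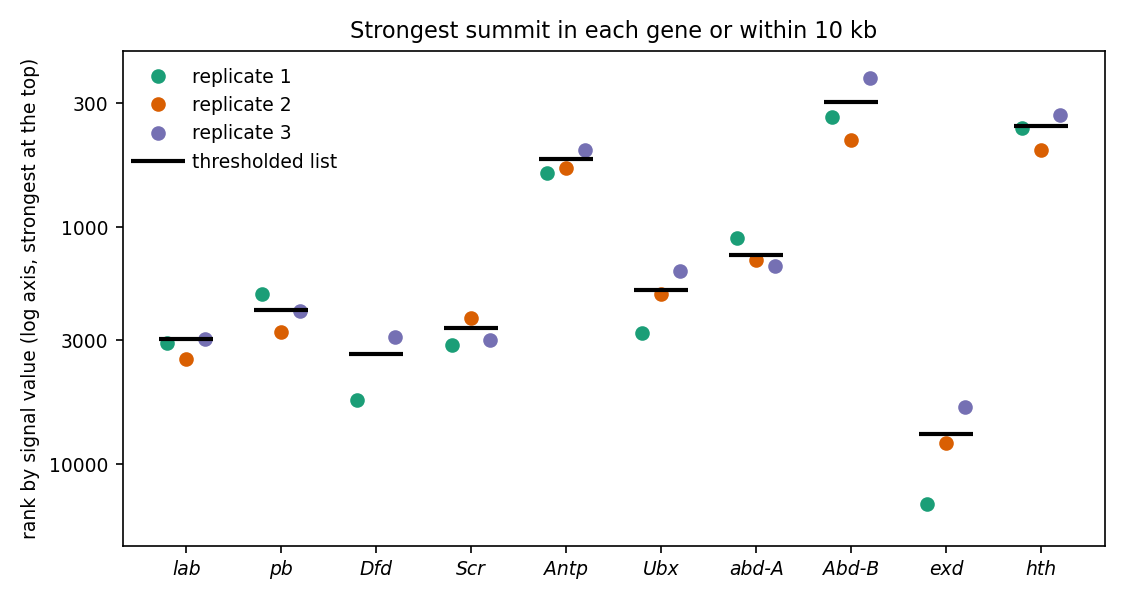
Rank of the strongest summit within 10 kb of each of the 10 genes, on a log axis with the strongest at the top, in the thresholded list (black bars) and of its match in each replicate list (points). Abd-B at rank 295 and hth at rank 374 are the strongest, exd at rank 7420 is the weakest, and the summit shown for Ubx lies at the promoter of its neighbour CG10324.

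In the BX-C the Hox genes had no thresholded summit at a start site (500 bp). Ultrabithorax (Ubx, FBgn0003944, chr3R:16656623-16734426, 77.8 kb), the gene of the third thoracic and first abdominal segments, had 4 summits inside and 7 within 10 kb. The replicates gave 7, 10 and 7 (8 ± 1.73, SD, n = 3), and genes of like length had a median of 4. The best rank inside Ubx was 3397, with 4227, 2667 and 4067 in replicates 1 to 3. The 3 outside were at promoters of the neighbours CG10324, CCT3 (a chaperonin subunit) and modSP (a serine protease), the first of them at rank 1831. The CG10324 and CCT3 summits belong to 1 peak, 16646940 to 16647431. The Ubx start was 14354 bp from a thresholded summit. The pooled list had a weak summit 60 bp from it at rank 18918, and the replicate lists had summits 185, 159 and 83 bp away at ranks 24638, 18380 and 21944.

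abdominal-A (abd-A, FBgn0000014, chr3R:16807214-16830049, 22.8 kb), the gene of the middle abdominal segments, had 0 thresholded summits inside and 6 within 10 kb. The replicates gave 6, 7 and 6. The strongest, at 16801265, lay 34 bp from the start of the non-coding RNA gene lncRNA:TS16 and ranked 1306, with 1105, 1373 and 1453 in replicates 1 to 3. The nearest abd-A start was 4781 bp from a thresholded summit, and a pooled summit of rank 13941 lay 150 bp from another of its 3 start sites. Abdominal-B (Abd-B, FBgn0000015, chr3R:16927212-16972236, 45.0 kb), the gene of the posterior abdomen, had 4 summits, all inside it, and 4 in each replicate. The strongest ranked 295, with 344, 430 and 234 in the replicates, and was the strongest of all 70. Its peak ran from 16957847 to 16958599, in an intron 1994 bp from the nearest of the 6 Abd-B start sites. The next, at 16970022, ranked 1935, and was 1448 bp from a start site.

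Most of the 24 BX-C summits outside the Hox genes lay in long non-coding RNA genes. lncRNA:iab8, which crosses 92.1 kb between abd-A and Abd-B and is the precursor of a microRNA that acts on the Hox genes abd-A and Ubx, held 13 summits, the best at rank 1857. The protein-coding gene MSAmiP overlaps most of it. lncRNA:bxd, upstream of Ubx, held 4, the best at rank 1263, with 945, 1180 and 1648 in the replicates. The hairpins mir-iab-4 and mir-iab-8 are on opposite strands of the same DNA, with starts 949 and 882 bp from the nearest summit. In the ANT-C, mir-10 and mir-993 were 5537 and 13243 bp from one.

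**Figure D3:**
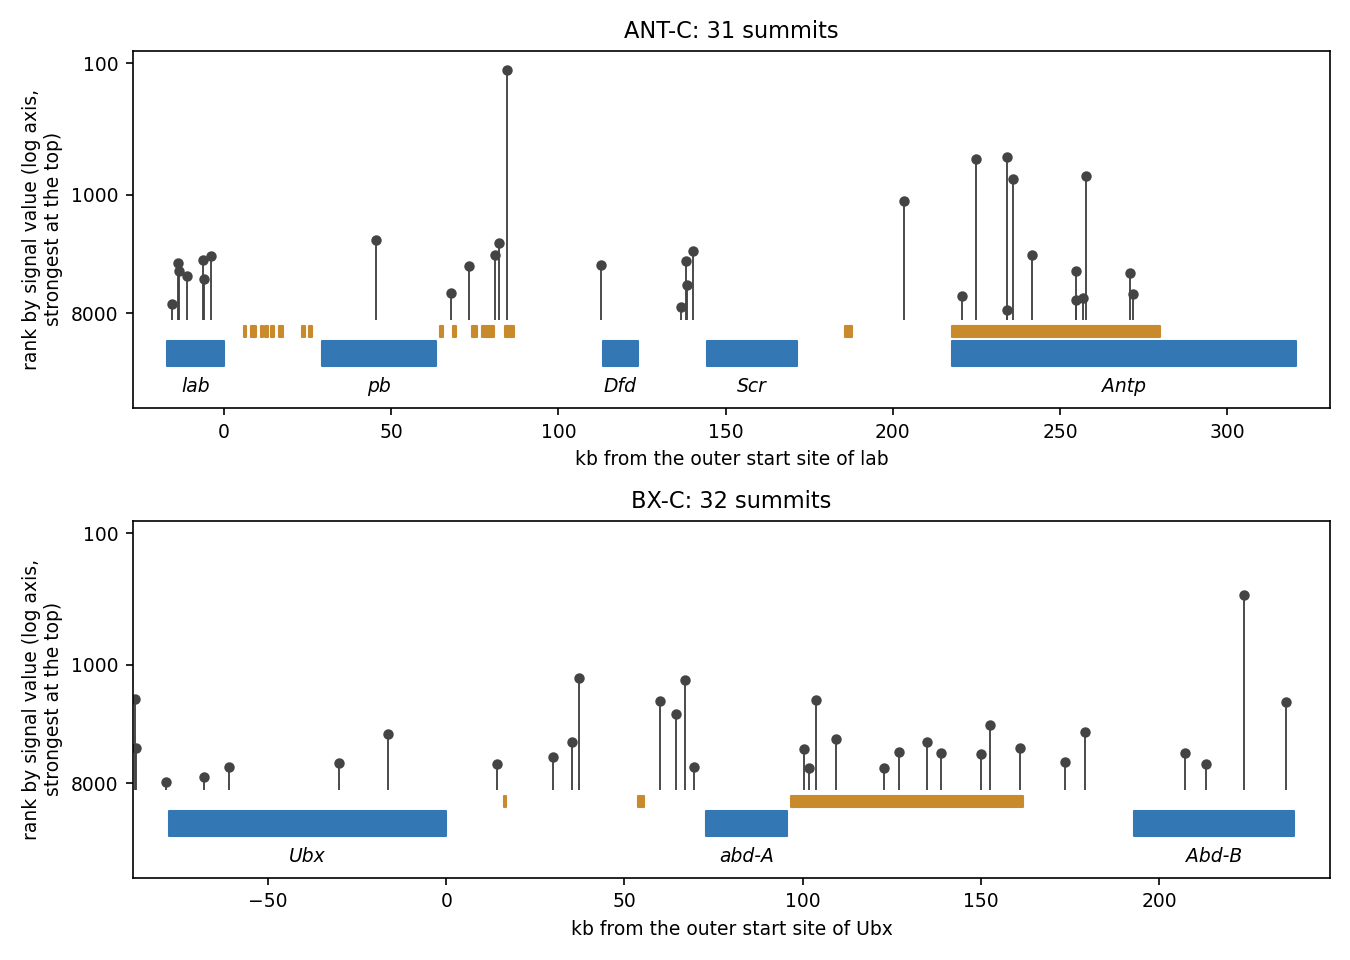
Thresholded summits along the ANT-C (upper panel) and the BX-C (lower panel), with distance in kb on the x axis and rank on a log y axis, strongest at the top. Boxes are Hox genes (blue) and other protein-coding genes (orange). The ANT-C summits crowd in lab and Antp with a 63.0 kb stretch without any, and the BX-C summits are spread more evenly, with Abd-B holding the strongest.

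Among the thresholded summits and the strongest parts of the replicate lists, the difference in density between the complexes was within its error. With 10 kb on either side, the ANT-C (chr3R:6651427-7009228) had 31 thresholded summits in 357.8 kb, or 8.66 per 100 kb (5.89 to 12.3). The BX-C (chr3R:16646623-16982236) had 32 in 335.6 kb, or 9.53 per 100 kb (6.52 to 13.5). The ratio of ANT-C to BX-C was 0.909 (0.536 to 1.54, two-sided exact test of the 2 counts, p = 0.708). The interval leaves room for a difference of either sign, and among the stronger 50% of the thresholded summits the ratio was 1.41 (exact p = 0.398). In replicates 1, 2 and 3 the ANT-C had 8.11, 7.55 and 10.3 summits per 100 kb (8.66 ± 1.48, SD), and the BX-C had 9.83, 10.4 and 10.1 (10.1 ± 0.298, SD). The mean difference, ANT-C minus BX-C, was -1.47 ± 1.56 per 100 kb (SD, n = 3), smaller than its spread, with an exact two-sided sign-flip permutation p of 0.5. With 3 replicates that test cannot go below 0.25. Over the full lists of 30000 peaks the mean difference was larger, -5.03 per 100 kb, and lower in the ANT-C in all 3 replicates (exact permutation p = 0.25, the smallest possible). For scale, the mean over chromosome arm 3R was 6.12 per 100 kb, and its 320 windows of 100 kb had a median of 5.5, with quartiles at 1 and 10.

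The share of summits inside the Hox genes was higher in the ANT-C than in the BX-C in all 3 replicates, a measure chosen after the values were seen. Inside the Hox genes lay 20 of the 31 ANT-C summits (64.5%, 45.4 to 80.8) and 8 of the 32 BX-C summits (25%, 11.5 to 43.4). The 20 comprised 12 in Antp, 7 in lab and 1 in pb, with 0 in Dfd and 0 in Scr. The 8 comprised 4 in Ubx and 4 in Abd-B, with 0 in abd-A. The ANT-C share thus rests mostly on Antp, whose 12 summits also lie in CG46458 and cannot be assigned to Antp alone. Hox genes cover 53.6% of the ANT-C interval and 43.4% of the BX-C interval. The share inside was 62.1%, 63.0% and 64.9% for the ANT-C and 24.2%, 28.6% and 20.6% for the BX-C in replicates 1, 2 and 3, and the ranges did not overlap. The difference was 38.8 ± 5.02 percentage points (SD, n = 3), at the smallest exact permutation p that 3 replicates allow, 0.25. In the whole pooled list it was narrower, 64.8% in the ANT-C and 35.1% in the BX-C, and over the full replicate lists the mean difference was 21.7 percentage points. The median gap between neighbouring summits was 2.25 kb in the ANT-C and 7.97 kb in the BX-C, where the widest gap was 31.0 kb, inside Ubx. Some of the short ANT-C gaps lie between summits of 1 peak, such as 6912639 and 6912862. Counting summits of 1 peak or within 200 bp once left 28 in the ANT-C and 31 in the BX-C. The gaps were not recomputed for these. The strongest 1000 summits of the genome included 5 of the ANT-C and 1 of the BX-C. Among other homeobox gene clusters, the densities were 13.4 per 100 kb (8.17 to 20.7, 20 summits, the Iroquois complex on 3L) and 6.05 per 100 kb (3.13 to 10.6, 12 summits, the NK cluster on 3R).

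Other genes of the ANT-C carried its strongest summit. That summit, at 6763090, lay in Ama, 314 bp from a start site of Ama, and ranked 112, with 110, 136 and 110 in replicates 1 to 3. It also lay in lncRNA:CR45593, 388 bp from the start of that gene, and so cannot be assigned to Ama alone. bicoid (bcd), the maternal anterior determinant, had a summit within 500 bp of its start at rank 2899. Both zen2 and zen, the latter acting in dorsal and extraembryonic tissue, had summits within 10 kb but none within 500 bp, and ftz had none at either distance. An intron of lncRNA:CR44931, between ftz and Antp, held a summit of rank 1123, with 1026, 1227 and 1217 in the replicates. The 7 Ccp84A cuticle genes between lab and pb had no summit within 10 kb.

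The cofactor genes hth and exd had 24 and 2 summits within 10 kb. homothorax (hth, FBgn0001235, chr3R:10507561-10639568, minus strand, 132 kb) had 18 of its 24 thresholded summits inside the gene. Replicates 1, 2 and 3 gave 28, 22 and 23 (24.3 ± 3.21, SD, n = 3), and all exceeded the like-length median of 4. Of genes of like length, hth itself included, 1.13% had 24 or more. Of all protein-coding genes, kirre (394 kb, 43 summits) and CG1677 (125 kb, 25 summits), both on X and looked up after the values were seen, had more. Per length, hth had 15.8 summits per 100 kb (10.1 to 23.5), against 18.8 (7.57 to 38.8) for lab and 14.0 (5.14 to 30.5) for abd-A. The others of the 10 genes were lower, from 3.27 for Dfd to 9.76 for Antp. Of the 24, 23 were matched in all 3 replicate lists. The pooled list held 102 more below the threshold.

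The strongest hth summit, at 10537318, ranked 374, with 380, 470 and 335 in replicates 1 to 3, and lay in an intron toward the 3′ end of the gene. It was followed by 10597766 (rank 1143), 10626180 (rank 1558) and 10636210 (rank 1891), also in introns. Upstream of the gene, 3 summits lay in exons of the antisense RNA gene asRNA:CR44018. The nearest of these, at 10640073 and rank 7212, was 505 bp from the outer hth start, just beyond the 500 bp limit, whereas the Dfd summit was just within it at 443 bp. At the inner start, 10614276, the pooled list had a summit 107 bp away at rank 9672, just short of the threshold. The replicates had summits 192, 50 and 5 bp from that start at ranks 7954, 7566 and 10510.

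**Figure D4:**
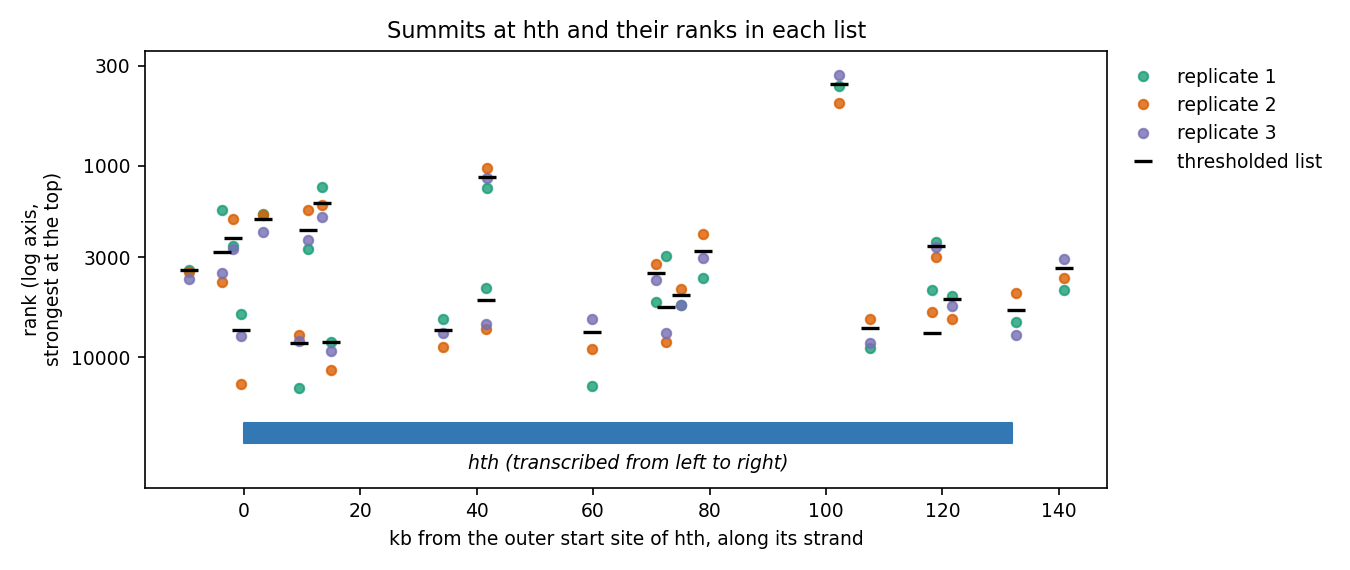
Thresholded summits across hth and 10 kb on either side, with distance in kb from its outer start site along its strand on the x axis. The log y axis gives their rank, strongest at the top, in the thresholded list (black bars) and of their matches in the replicate lists (points). The 24 summits are spread along the gene, and the strongest, rank 374, lies far from both start sites.

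extradenticle (exd, FBgn0000611, chrX:15992468-15996509, plus strand), at 4.04 kb the shortest of the 10, had 0 summits inside and 2 within 10 kb. The replicates gave 1, 2 and 2. The summit 309 bp upstream of its first start ranked 7420, with 14745, 8104 and 5748 in replicates 1 to 3, so in replicate 1 it fell outside the strongest part of the list. It was nearer to the start of eIF5 and CG46312, 185 bp away, and so cannot be assigned to exd alone. The other, at the promoter of Slc25A46a, ranked 8144 and had no match in replicate 1.

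By annotation, 48 of the 70 summits lay in introns (68.6%, 56.4 to 79.1), against 38.4% of all thresholded summits. Promoters, meaning 500 bp around the start of any protein-coding gene, took 8 (11.4%, 5.07 to 21.3), against 37.8%. A further 11 (15.7%) were intergenic, against 20.4%. The remaining 3 were in non-coding exons, and none was in a coding sequence. In the ANT-C 5 of 31 were at promoters and 20 in introns, and in the BX-C 3 of 32 were at promoters and 25 in introns. None of the 24 summits at hth was at a promoter. Gene length and intron length were not matched in these shares, and their part in the difference was not tested.

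**Figure D5:**
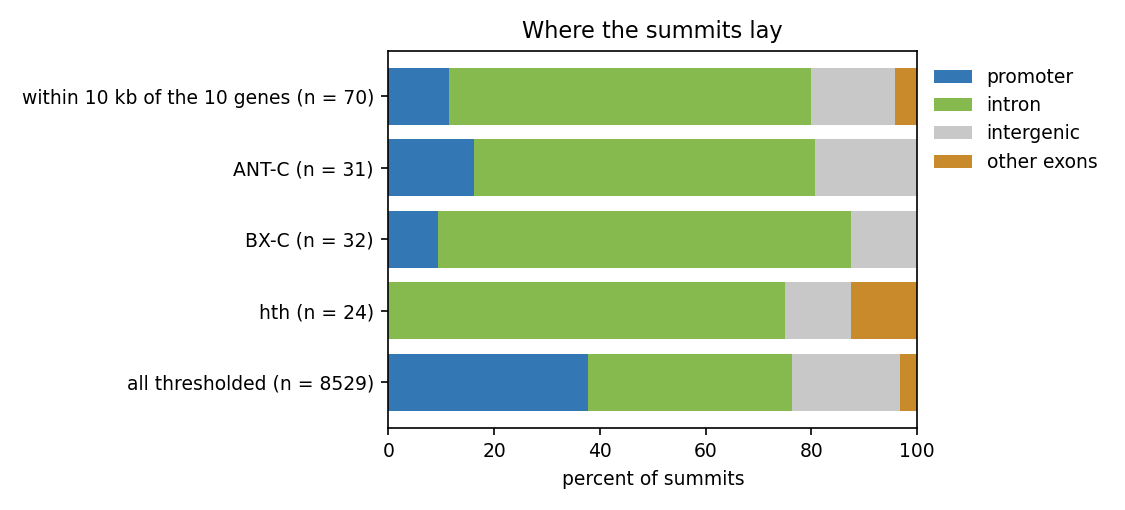
Stacked bars of the percent of summits in promoters, introns, intergenic sequence and other exons, for the summits at the 10 genes, in the ANT-C, in the BX-C, at hth and for all thresholded summits. Introns hold 68.6% at the 10 genes against 38.4% over all, and promoters 11.4% against 37.8%.

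Short motifs were searched on both strands in the 101 bases around each summit. The composite Hox-Exd motif TGATNNAT was in 10 of the 70 windows (14.3%, 7.07 to 24.7), against 9.44% of all thresholded summits, and it is the match capitalised at lab. The Zelda motif CAGGTA was in 4 (5.71%, 1.58 to 14.0) against 1.89%. The Ama window also holds it, but Ama is not among the 10 genes and its summit is not among the 70. GAGAG, bound by GAGA factor, was in 7 (10%) against 8.29%, and the homeodomain core TAATTA, capitalised at exd, in 7 (10%) against 12.3%. GCCAT, the core of the Polycomb recruiter Pho, was in 6 (8.57%) against 11.5%. The Hth motif TGACAG was in 2 (2.86%) against 2.84%, and both it and GAGAG are capitalised at Abd-B. CGATA, the BEAF-32 core, was in 7 (10%) against 12.9%, and TATCGATA, the DNA replication-related element, which contains CGATA, was in 1 (1.43%) against 1.43%. The CTCF core AGGNGGCGC was in 0 of 70, for which the interval runs up to 5.13%, against 0.457%. For all 9 motifs the share over all summits lay within the interval for the 10 genes. A match describes the letters only, and a missing match says only that these letters were not in the window.

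Genes that act before, beside or after the Hox genes were counted in the same way, against the 26.7% of all genes with a summit at a start site. Of 12 genes that maintain Hox expression states, the Polycomb and Trithorax groups, 8 had such a summit, led by ph-p (rank 38), E(z) (rank 207) and brm (rank 217). Of 9 Hox target genes 5 had one, with fkh (salivary gland, rank 3153), rho (rank 5286) and Dll (limbs, rank 6135) the best ranked. Of 17 regulators of head and trunk patterning 2 had one, cnc (rank 2363) and oc (rank 8444). Of 5 other TALE homeobox genes only caup had one (rank 8475). Of 5 other ANT-C genes 2 had one, Ama and bcd. A summit within 10 kb was found for 13 of the 17 regulators and all 5 TALE genes, against 70.4% of all protein-coding genes. The median number of summits within 10 kb was 3 for the maintenance, TALE and ANT-C lists and 2 for the other lists, against 2 for all protein-coding genes.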

How the data were processed

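ChIP-seq peak lists of CG18262-eGFP from 3 biological replicates, their pool and an IDR-thresholded set were used as deposited. Per the labels, they are on dm6, and the replicates share 1 control. The sources used here name neither the aligner nor the peak caller. The values are the authors' signal values per peak, used only to rank peaks within a list. Peaks were placed on the Ensembl release 115 annotation (BDGP6.54) and the RefSeq sequence of that assembly, with Python 3.11.15, pandas 2.3.3, NumPy 2.4.6, SciPy 1.17.1 and matplotlib 3.10.9. A summit belonged to a gene when inside it or within 10 kb, and to a promoter when within 500 bp of a start site. Summits within 100 bp were matched. Intervals are Clopper-Pearson for shares and exact Poisson for densities. Replicates were compared by an exact sign-flip permutation test, checked on a small case with a known answer. The exact test of 2 counts was checked on simulated data. Permutation p-values measure only the spread between these samples, and those of the exact test of 2 summit counts cover counting error only. The 10 genes, all of which are named with their strongest summit, the other lists, of which the 3 best-ranked genes are named, and the motifs were chosen with earlier results of these data known. Alternatives covered the list, flank, promoter and matching distances, merging, and leaving out each replicate.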

Additional observations from a re-analysis of the deposited data

How the results depend on the processing

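Of 57 alternative values, 1 turned its direction and 12 moved beyond the limit set for their kind of value. The 4 genes with a summit within 500 bp of a start site became 2 in the stronger 50% of the thresholded list, 7 in the whole pooled list and 0 within 200 bp. The 70 summits became 36 in the stronger 50%, 289 in the pooled list and 46 without the 10 kb flanks. The ratio of ANT-C to BX-C density, 0.909, turned to 1.41 in the stronger 50% (exact p = 0.398), and the cause was not tested. The difference in density between the complexes over replicates, -1.47 per 100 kb, was -5.03 in the full replicate lists and -0.533 without flanks, and -2.31 to -0.759 without a replicate. The 91.4% of summits matched in all 3 lists became 74.3% within 50 bp, 97.1% within 200 bp and 72.9% against the strongest parts of the replicate lists. The median position of 47.7% became 52.5% and 54.9% in replicates 1 and 2. It was 61.8% in the stronger 50%, counted within that part and so on another scale. The share of summits inside Hox genes kept its direction in settings added after the data were seen, with ANT-C minus BX-C between 21.7 and 41.1 percentage points. Antp was kept in all of these settings. Without read depth or an untagged control, weak summits such as that at exd cannot be told from background.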
